A study of Mus musculus with 4 samples.

Results

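The 7 subunits of respiratory complex I that mouse mitochondrial DNA encodes, mt-Nd1, mt-Nd2, mt-Nd3, mt-Nd4, mt-Nd4l, mt-Nd5 and mt-Nd6, were examined in RNA of cauda epididymal spermatozoa. They were taken by symbol after the Ensembl identifiers of the tables had been matched to gene names, and all 7 stood among the 8699 genes listed in each of the 4 libraries. The tested animals had received nicotine (nicotine replicates 1 and 2) and the controls saline (saline replicates 1 and 2). All were adult male C57BL/6J mice, an inbred strain, killed at about 11 weeks, and their sperm were pressed out of the nicked cauda epididymidis into a culture medium. The sources used here give no dose, route or length of treatment. Whether both libraries of a group stem from different animals is not stated by the labels, so a p-value here reflects the spread between libraries, which could be technical.

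Complex I, or NADH:ubiquinone oxidoreductase, is the entry point of electrons from NADH into the respiratory chain and pumps protons across the inner mitochondrial membrane. Its membrane arm is built around the mitochondrially encoded subunits, while the peripheral arm that oxidises NADH comes from nuclear genes. Sperm mitochondria are wound around the midpiece of the tail. Mitochondrial messenger RNAs are cut from long precursors that cover most of a strand of the circular genome, so the amounts of mature RNAs depend on processing and decay as well as on transcription.

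The messenger RNAs of mitochondria carry almost no untranslated sequence, and several begin with a codon other than ATG. The first 30 bases of each RNA are given to identify the counted molecules, from the GENCODE M21 transcripts of build GRCm38, with the first codon in capitals.
mt-Nd1: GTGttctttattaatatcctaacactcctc
mt-Nd2: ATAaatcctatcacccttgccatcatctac
mt-Nd3: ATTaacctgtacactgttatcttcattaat
mt-Nd4l: ATGccatctaccttcttcaacctcaccata
mt-Nd4: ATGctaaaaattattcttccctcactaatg
mt-Nd5: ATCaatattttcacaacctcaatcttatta
mt-Nd6: ATGaataattatatttttgttttaagttca
The first 6 of these lie on 1 strand of the mitochondrial chromosome, in the order given, and mt-Nd6 lies on the other. The letters show it. G made up 28.1% and C 5.97% of mt-Nd6, whereas G made up 8.0% (mt-Nd2) to 11.6% (mt-Nd1) of the other RNAs and C at least 22.1% (mt-Nd3).

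A pair of neighbours overlap in each of 2 places, and these bear on how reads were assigned. The end of mt-Nd4l and the start of mt-Nd4 share 7 bases on the same strand, shown in capitals, where the stop of the first gene and the start of the second interlock.
mt-Nd4l, last 30 bases: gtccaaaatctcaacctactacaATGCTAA
mt-Nd4, first 30 bases: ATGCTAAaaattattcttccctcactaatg
The ends of mt-Nd5 and mt-Nd6 meet tail to tail and share 14 bases on opposite strands, again in capitals and each written 5′ to 3′ on its own strand.
mt-Nd5, last 30 bases: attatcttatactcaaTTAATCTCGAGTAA
mt-Nd6, last 30 bases: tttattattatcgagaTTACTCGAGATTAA
The strand setting of the counting was not given in the sources used here, so reads of mt-Nd6 and of antisense RNA across it cannot be told apart. Nor was the treatment of reads that match several places given, and the nuclear genome holds copies of mitochondrial sequence, so all 7 counts are uncertain to that extent. The listed lengths, from 297 bases for mt-Nd4l to 1824 for mt-Nd5, equalled the GENCODE transcript lengths for 7 of 7 genes.

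Library make-up matters for every level below. Tables held 3798794 to 5216745 reads, of which the genes Lars2 and Gm42418 together took 90.6% in nicotine replicate 1, 77.5% in nicotine replicate 2, and 74.9% and 75.8% in saline replicates 1 and 2. Reads left for all other genes were 358477 in nicotine replicate 1, against 931578 to 1176304 in the other libraries. RPKM as deposited (reads per kilobase of gene length, scaled to the reads of the whole table) counts this pair in its total, so levels are also given as a share of the reads outside the pair. The sperm markers Prm1, Odf1 and Smcp were detected in every library, with at least 356 reads each.

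Complex I messenger RNAs were among the most abundant RNAs in all 4 libraries. By RPKM mt-Nd1 ranked 10th of all genes in every library, and the lowest of the 7, mt-Nd2, ranked 20th to 30th. mt-Nd1, the subunit next to the ubiquinone site, had 1063 and 2222 RPKM in nicotine replicates 1 and 2, against 1564 and 1598 RPKM in saline replicates 1 and 2. It was the highest of the 7 in each library, and mt-Nd2, a proton-pumping subunit, was the lowest. mt-Nd2 had 333.2 and 773.4 RPKM with nicotine, against 486.3 and 485.9 RPKM with saline. The highest level was 3.19 and 2.87 times the lowest in nicotine replicates 1 and 2, against 3.22 and 3.29 times in saline replicates 1 and 2. The order between these ends differed. mt-Nd4 and mt-Nd5, 2 further proton-pumping subunits, ranked 2 and 3 of the 7 in both nicotine libraries. In saline mt-Nd5 ranked 2 in both libraries, and mt-Nd4 ranked 3 and 4. mt-Nd3, a small subunit at the bend between the arms, ranked 5 and 6 with nicotine, against 4 and 3 with saline. mt-Nd4l and mt-Nd3 were within counting error of each other in nicotine replicate 1, at 413.9 and 413 RPKM, and so were mt-Nd5 and mt-Nd3 in saline replicate 2, at 834.2 and 825 RPKM, so the order of these neighbours is not resolved there.

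**Figure D1:**
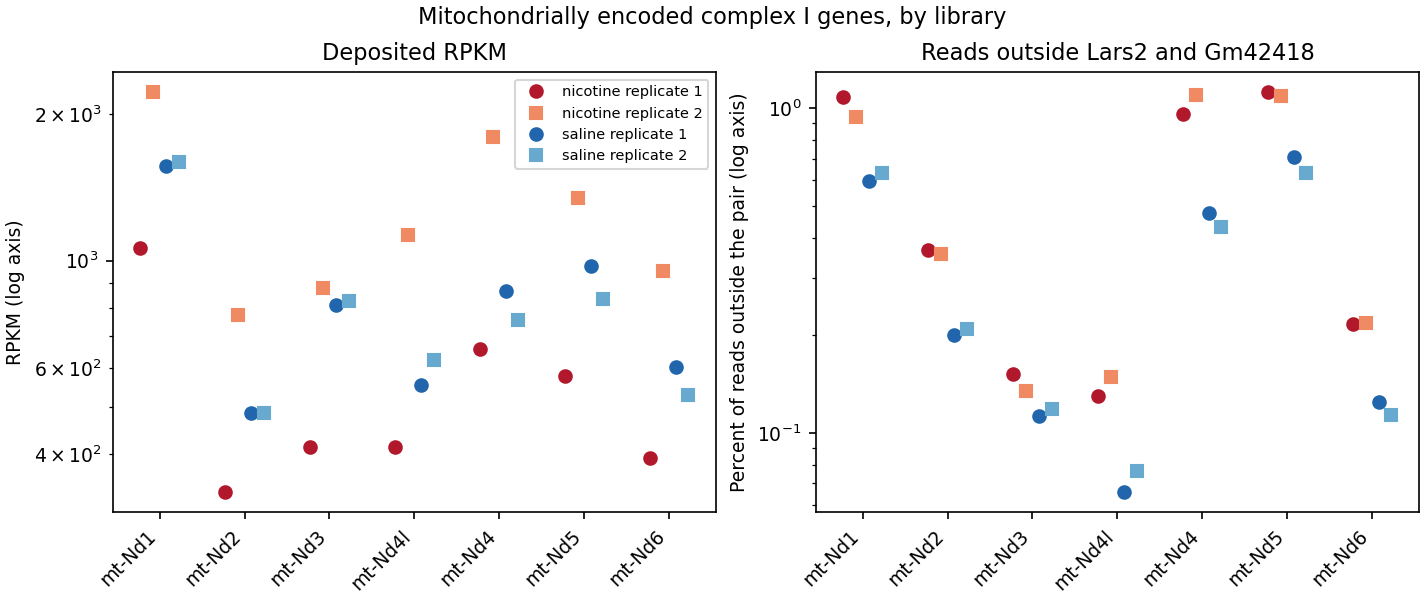
Level of each gene in each library, as deposited RPKM (left) and as percent of reads outside Lars2 and Gm42418 (right), both on log axes, with genes in genome order. On the left nicotine replicate 1 lies below and nicotine replicate 2 above both saline libraries for 7 of 7 genes, and on the right both nicotine libraries lie above both saline libraries for 7 of 7.

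Whether the 7 RNAs were more abundant with nicotine depended on the denominator. In deposited RPKM the groups overlapped for all 7, because nicotine replicate 1 was below and nicotine replicate 2 above both saline libraries, a pattern that 10.9% of all tested genes had. Both nicotine libraries were above both saline libraries in RPKM for 0 of 7, against 6.99% of all tested genes. Summed RPKM over the 7 genes was 3855 and 9098 in nicotine replicates 1 and 2, against 5860 and 5651 in saline replicates 1 and 2. As a share of all reads the 7 genes had 0.38% (exact 95% interval 0.374 to 0.386%) and 0.899% (0.891 to 0.907%) with nicotine, against 0.573% (0.566 to 0.581%) and 0.534% (0.527 to 0.542%) with saline. The 2 nicotine libraries thus differed from each other more than the saline libraries did, and the groups overlapped (two-sided exact permutation p = 1 for the difference of means of 0.0858 percentage points).

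Outside Lars2 and Gm42418 the summed share of the 7 genes was alike in the 2 nicotine libraries, though mt-Nd1 was higher in nicotine replicate 1 and mt-Nd4 in nicotine replicate 2. Of these reads the 7 genes held 4.03% (3.96 to 4.09%) and 3.99% (3.95 to 4.02%) with nicotine, against 2.29% (2.26 to 2.32%) and 2.21% (2.18 to 2.24%) with saline. Means were 4.007 ± 0.0263% with nicotine and 2.25 ± 0.0536% with saline (SD, n = 2 each), a ratio of 1.78, and the gap exceeded the spread inside either group. The two-sided exact permutation p was 0.333, which is the smallest that 2 against 2 libraries can give, so this design cannot reach 0.05. On this scale both nicotine libraries lay above both saline libraries for 7 of 7 genes, against 16.8% of all tested genes. Intervals cover counting error only. In bulk RNA, fewer cells of a type and less RNA per cell cannot be told apart.

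**Figure D2:**
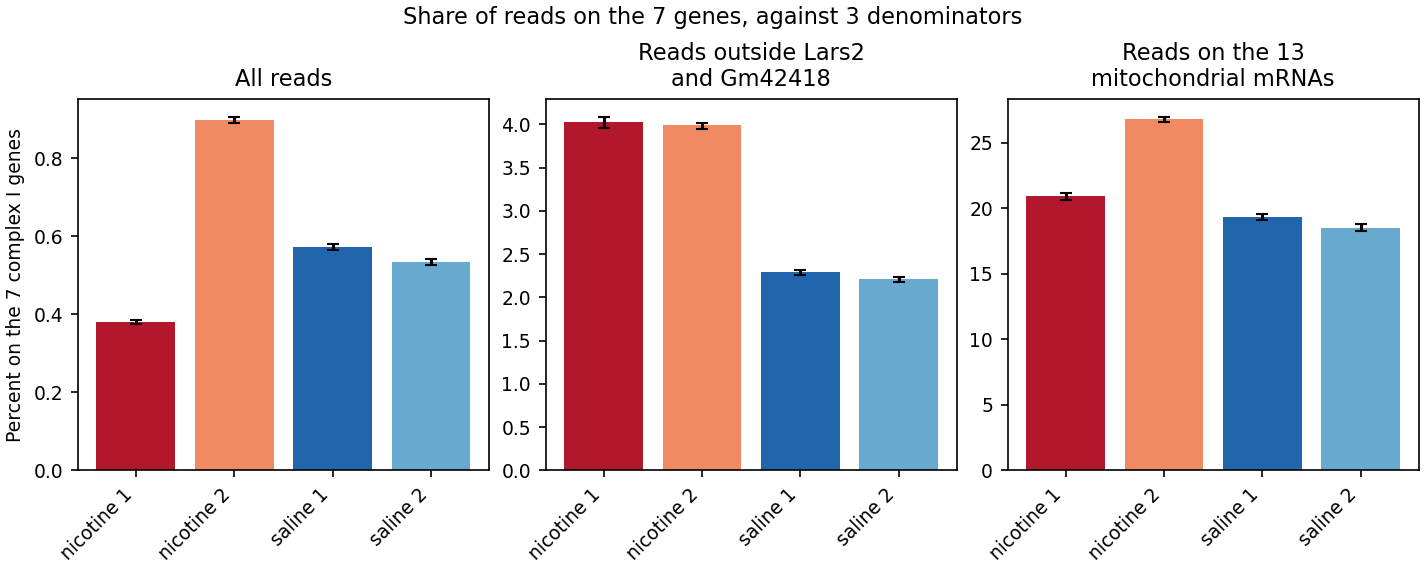
Percent of reads on the 7 genes in each library, of all reads (left), of reads outside Lars2 and Gm42418 (middle) and of reads on the 13 mitochondrial messenger RNAs (right), with bars from 0 and exact 95% counting intervals. The nicotine bars lie on both sides of the saline bars on the left, stand in the middle at 4.03% and 3.99% with nicotine against 2.29% and 2.21% with saline, and on the right at 20.9% and 26.8% with nicotine against 19.3% and 18.5% with saline.

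In the test across all genes none of the 7 passed. By edgeR's quasi-likelihood test with TMM scaling 0 of 7 had an adjusted p under 0.05, while 8.27% of the 8375 tested genes were called higher and 0.931% lower. An unadjusted p under 0.05 was reached by 6 of 7, all higher with nicotine, against 16.6% of all tested genes. Their median log2 fold change (nicotine over saline) was 1.56, where the median of all tested genes was -0.14. On TMM-scaled CPM (counts per unit of a library size that TMM rescales) both nicotine libraries exceeded both saline libraries for 7 of 7, against 27.4% of all tested genes. Nicotine replicate 1 exceeded nicotine replicate 2 for 7 of 7 on this scale, and for 6 of 6 other mitochondrial messenger RNAs. The share of all genes with that order was not computed, and in RPKM nicotine replicate 1 was the lower for 7 of 7. DESeq2 called 6 of 7 higher (all but mt-Nd3), against 10.8% of all genes, and limma-voom 4 of 7 (all but mt-Nd1, mt-Nd3 and mt-Nd5), against 9.15%. By edgeR 6 were called without nicotine replicate 1 (10.8% of all genes) and 7 without nicotine replicate 2 (17.8%), but 0 without saline replicate 1 (0.152%) and 0 without saline replicate 2, where 0 of all genes were called higher and 964 had an unadjusted p under 0.05. With edgeR on median-of-ratios size factors and with no filter on low counts 0 of 7 were called, against 8.75% and 7.59% of all genes. An unadjusted p under 0.05 was reached by 4 and 6 of 7, and by 2010 of 8375 and 2146 of 8699 genes in either direction. The call thus turned on the tool, and the size on the scaling. The median log2 fold change of the 7 was 0.82 with reads outside the pair as the library size, 0.31 with mitochondrial mRNA reads and 0.19 with total reads. There 2, 0 and 0 of 7 had an unadjusted p under 0.05. Of the 8375 tested genes 2521, 2836 and 888 did so, in either direction.

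Fold changes of single genes differed in size between the TMM scale and the scale of reads outside the pair, on which the shares are given. The proton-pumping subunits mt-Nd2, mt-Nd4 and mt-Nd5 lie in the membrane arm. mt-Nd4 held 0.962% and 1.10% of reads outside the pair in nicotine replicates 1 and 2, against 0.477% and 0.431% in saline replicates 1 and 2. Both nicotine values were at least 2.02 times the higher saline value, the widest gap among the 7, and the log2 fold change was 1.90 ± 0.60 with TMM (SE, edgeR adjusted p = 0.0766) and 1.18 with reads outside the pair as the library size. mt-Nd5, the longest of the RNAs, held 1.12% and 1.09% with nicotine, against 0.709% and 0.63% with saline. Its nicotine libraries nearly coincided, and its log2 fold change was 1.46 ± 0.62 with TMM (edgeR adjusted p = 0.177) and 0.72 with reads outside the pair. mt-Nd2 held 0.367% and 0.356% with nicotine, against 0.201% and 0.209% with saline. Again the groups were apart, with a log2 fold change of 1.56 ± 0.55 with TMM (edgeR adjusted p = 0.105) and 0.82 with reads outside the pair.

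The other members are mt-Nd1, mt-Nd3, mt-Nd4l and mt-Nd6. mt-Nd1 held 1.08% and 0.943% of reads outside the pair in nicotine replicates 1 and 2, against 0.597% and 0.633% in saline replicates 1 and 2, and had a log2 fold change of 1.47 ± 0.62 with TMM (edgeR adjusted p = 0.175) and 0.72 with reads outside the pair. mt-Nd6, the gene on the other strand, held 0.216% and 0.219% with nicotine, against 0.125% and 0.114% with saline. Its fold change, 1.60 ± 0.52 on the log2 scale with TMM (edgeR adjusted p = 0.0828) and 0.87 with reads outside the pair, was near the median of the 7. mt-Nd4l, a small subunit whose gene abuts mt-Nd4, held 0.13% and 0.149% with nicotine, against 0.0657% and 0.0766% with saline. It came closest to the threshold (log2 fold change 1.69 ± 0.50 with TMM, edgeR adjusted p = 0.0599, and 0.97 with reads outside the pair). mt-Nd3 held 0.152% and 0.135% with nicotine, against 0.113% and 0.119% with saline. That was the narrowest gap of the 7, with the lower nicotine value 1.14 times the higher saline value, and the log2 fold change was 1.07 ± 0.51 with TMM (edgeR adjusted p = 0.238) and 0.32 with reads outside the pair.

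**Figure D3:**
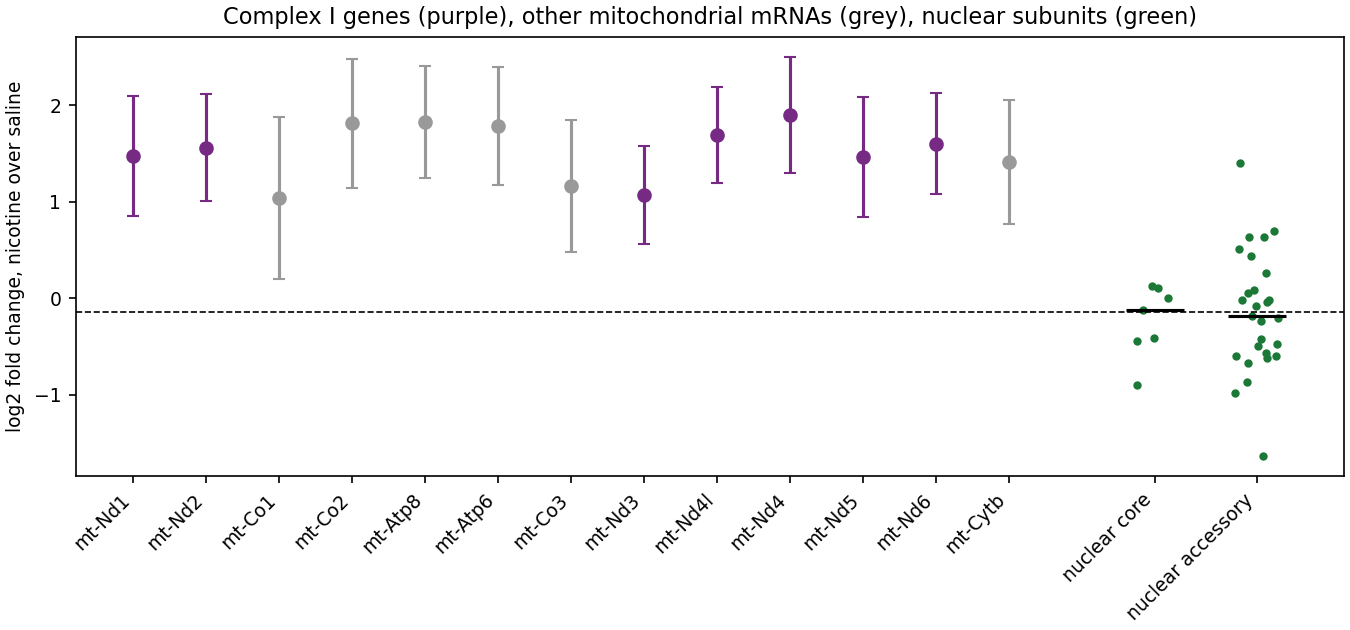
Log2 fold change (nicotine over saline, edgeR with TMM) of the mitochondrial messenger RNAs in genome order, with bars of ± 1 standard error, and of nuclear complex I subunits as single points with a line at their median; the dashed line is the median of all tested genes at -0.14. The 7 mitochondrially encoded complex I genes lie between 1.07 (mt-Nd3) and 1.90 (mt-Nd4), and the medians of the nuclear subunits at -0.12 and -0.18.

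Inside a library the make-up of complex I messenger RNA can be read without any scaling between libraries. mt-Nd1 made up 27.6% and 24.4% of the summed RPKM of the 7 genes in nicotine replicates 1 and 2, against 26.7% and 28.3% in saline replicates 1 and 2. mt-Nd2 made up 8.64% and 8.5% with nicotine, against 8.3% and 8.6% with saline. For both genes the groups overlapped, as they did for mt-Nd5 (15% and 14.8% with nicotine, 16.6% and 14.8% with saline), mt-Nd4l (10.7% and 12.4% with nicotine, 9.47% and 11.0% with saline) and mt-Nd6 (10.2% and 10.5% with nicotine, 10.3% and 9.36% with saline). mt-Nd3 made up 10.7% and 9.64% with nicotine, against 13.8% and 14.6% with saline. mt-Nd4 made up 17.1% and 19.8% with nicotine, against 14.8% and 13.4% with saline. These were the 2 genes whose groups stood apart, mt-Nd3 lower and mt-Nd4 higher in both nicotine libraries (two-sided exact permutation p = 0.333 for each, the smallest possible, and 0.667 for each of the other 5). Random labels on 2 against 2 libraries set a single gene's groups apart with probability 0.333. The 7 shares come from the same libraries and add up to a fixed whole, so a rise in 1 share lowers others. They are not separate draws, so the count of 2 of 7 cannot be judged against that probability, and no conclusion is drawn from it. Scaling edgeR to the reads on the 7 genes, a setting chosen after seeing the data, gave log2 fold changes of -0.52 ± 0.42 for mt-Nd3 and 0.35 ± 0.41 for mt-Nd4 (adjusted p = 0.294 and 0.471), neither past the threshold.

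**Figure D4:**
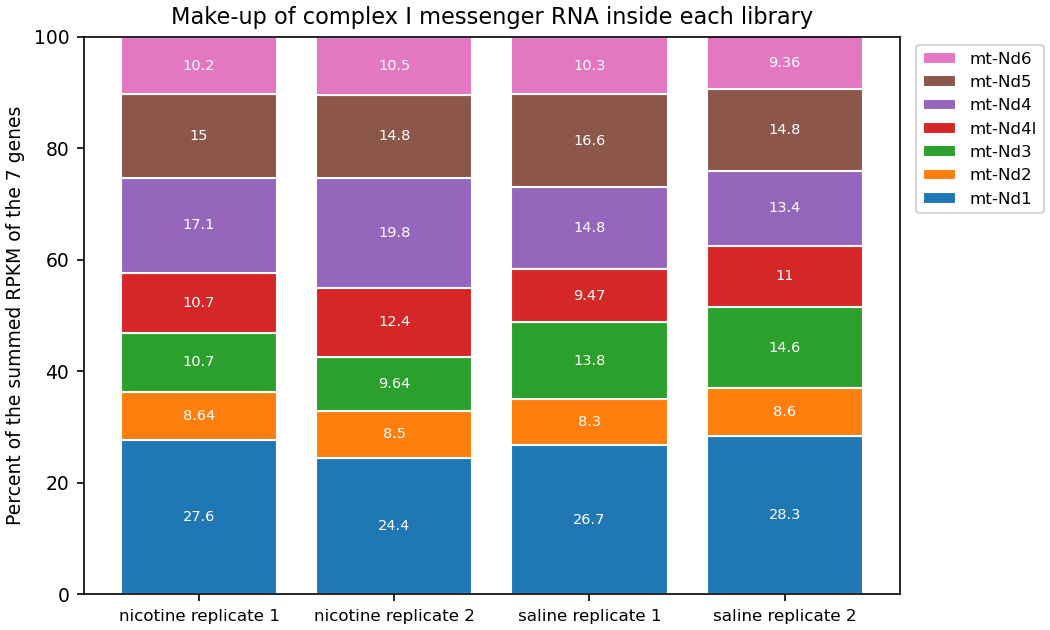
Percent of the summed RPKM of the 7 genes that each gene contributes, stacked to 100% for each library, genes in genome order from the bottom. mt-Nd1 is the widest band in every library, mt-Nd3 is narrower and mt-Nd4 wider in both nicotine libraries than in both saline libraries.

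Ratios between members, per length, restate the same RPKM values. In them too mt-Nd3 was lower and mt-Nd4 higher with nicotine, but other ratios stood apart as well. mt-Nd3 stood at 0.388 (0.354 to 0.425) and 0.395 (0.374 to 0.416) of the RPKM of mt-Nd1 in nicotine replicates 1 and 2, against 0.519 (0.486 to 0.553) and 0.516 (0.484 to 0.551) in saline replicates 1 and 2. Replicates of a group differed far less than the groups did, and the counting intervals of the groups did not meet. mt-Nd4 stood at 1.59 and 2.05 times mt-Nd3 with nicotine, against 1.07 and 0.916 times with saline. This ratio varied more between nicotine libraries. That it lay above both saline values follows from the shares of the 2 genes given above and adds no support. Relative to mt-Nd1, mt-Nd4 stood at 0.619 and 0.81 with nicotine, against 0.555 and 0.473 with saline. mt-Nd5 stood at 0.88 and 0.746 times mt-Nd4 with nicotine, against 1.12 and 1.10 times with saline, so that the order of these neighbours was turned. By contrast mt-Nd5 over mt-Nd1 had a mean of 0.575 ± 0.0419 with nicotine and 0.572 ± 0.0709 with saline (SD, n = 2 each). In all 8 ratios between members were computed, and the groups stood apart for each except mt-Nd5 over mt-Nd1. That includes mt-Nd6 over mt-Nd5 and mt-Nd2 over mt-Nd1 (0.313 and 0.348 with nicotine, against 0.311 and 0.304 with saline). Standing apart was therefore not particular to mt-Nd3 and mt-Nd4. The 8 ratios reuse the same genes and are not separate results, and none can have an exact permutation p under 0.333.

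The ratios of the 2 overlapping pairs varied in different ways over the libraries. mt-Nd4l and mt-Nd4 share a single mature RNA in mammals, yet per length mt-Nd4l stood at 0.629 (0.569 to 0.693) and 0.629 (0.598 to 0.661) of mt-Nd4 in nicotine replicates 1 and 2, against 0.64 (0.589 to 0.694) and 0.825 (0.761 to 0.893) in saline replicates 1 and 2. Here saline replicate 2 stood apart from the other 3 libraries, and the intervals of saline replicate 1 and both nicotine libraries overlapped. mt-Nd6 stood at 0.678 (0.627 to 0.733) and 0.709 (0.679 to 0.739) of mt-Nd5 with nicotine, against 0.619 (0.582 to 0.658) and 0.634 (0.593 to 0.677) with saline. The means were 0.693 ± 0.0214 with nicotine and 0.626 ± 0.0104 with saline (SD, n = 2 each), and the interval of nicotine replicate 1 overlapped those of both saline libraries while that of nicotine replicate 2 overlapped neither.

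Against the other 6 mitochondrial messenger RNAs (mt-Co1, mt-Co2 and mt-Co3 of cytochrome c oxidase, mt-Cytb of complex III, and mt-Atp6 and mt-Atp8 of ATP synthase) the complex I genes took a larger part with nicotine. Of reads on all 13 they held 20.9% (20.6 to 21.2%) and 26.8% (26.6 to 27.0%) in nicotine replicates 1 and 2, against 19.3% (19.1 to 19.6%) and 18.5% (18.3 to 18.8%) in saline replicates 1 and 2. The groups did not overlap (exact permutation p = 0.333), but nicotine replicate 1 lay closer to saline than to nicotine replicate 2, and the difference of means, 4.9 percentage points, became 1.94 without nicotine replicate 2 and 7.87 without nicotine replicate 1. mt-Co1 alone took 45.1% and 36.0% of these reads with nicotine, against 50.3% and 50% with saline. The gain was not limited to complex I. mt-Co2 and mt-Atp6 took more in both nicotine libraries, at ratios of means of 1.44 and 1.43, against 1.26 for the 7 genes. mt-Co3 took less in both nicotine libraries (0.908), and the groups overlapped for mt-Cytb and mt-Atp8. With mt-Co1 left out, the 7 genes held 38.0% and 41.9% with nicotine, against 38.9% and 37.0% with saline, and the groups overlapped. The other 6 had a median log2 fold change of 1.59 by edgeR, 0 of 6 passing and 3 with an unadjusted p under 0.05, against 1.56 for the 7. Among the 7, mt-Nd3 held 0.789% and 0.909% of mitochondrial messenger RNA reads with nicotine, against 0.952% and 0.996% with saline, and was the only member of the 7 to be lower in both nicotine libraries on this scale.

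Nuclear genes of complex I lay near the median of all genes. All 7 core subunits and 27 of the 30 accessory subunits on the list were in the tables, and by edgeR 0 of 7 and 0 of 27 passed in either direction (0 and 2 with an unadjusted p under 0.05, the 2 being Ndufa3 and Ndufa12 at adjusted p = 0.149 and 0.121, named after their values were seen), with median log2 fold changes of -0.12 and -0.18 where all genes had -0.14. Together they held 0.0547% (0.0473 to 0.0629%) and 0.115% (0.108 to 0.121%) of reads outside the pair in nicotine replicates 1 and 2, against 0.152% (0.145 to 0.16%) and 0.158% (0.15 to 0.167%) in saline replicates 1 and 2. Both nicotine libraries were thus below both saline libraries, at a ratio of means of 0.545. On that scale the median log2 fold change of all tested genes was itself -0.77. Ndufv2, an iron-sulfur core subunit, had 1 and 73 reads with nicotine, against 64 and 74 reads with saline. The accessory subunit Ndufb9 had 9 and 77 reads with nicotine, against 52 and 96 reads with saline, and the accessory subunit Ndufb11 had 8 and 54 reads with nicotine, against 103 and 61 reads with saline. Counts in nicotine replicate 1 were low for all 3, which limits any comparison there. The mean RPKM of the 7 mitochondrial genes was 402 and 195 times that of the 34 nuclear subunits with nicotine, against 88.2 and 81.9 times with saline (exact permutation p = 0.333).

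Genes that assemble complex I or serve mitochondrial gene expression did not pass either. Of the assembly factors 7 of 19 were in the tables and 0 of 7 passed by edgeR, with 0 at an unadjusted p under 0.05 (median log2 fold change -0.17). Ndufaf3 and Foxred1, both assembly factors, had log2 fold changes of 0.90 ± 0.58 and 0.21 ± 0.58 (edgeR adjusted p = 0.389 and 0.869). In the list of mitochondrial transcription and DNA maintenance 6 of 14 were in the tables and 0 of 4 tested passed by edgeR, 1 having an unadjusted p under 0.05. Tfam, which packages and helps transcribe mitochondrial DNA, had 15 and 34 reads in nicotine replicates 1 and 2, against 27 and 16 reads in saline replicates 1 and 2 (log2 fold change 1.35 ± 0.62, edgeR adjusted p = 0.214). Polg, the mitochondrial DNA polymerase, had 4 and 26 reads with nicotine, against 70 and 57 reads with saline (log2 fold change -1.25 ± 0.54, edgeR adjusted p = 0.19). The 2 genes thus pointed in opposite directions, both on few reads. In the list of mitochondrial RNA processing and stability 15 of 20 were in the tables and 0 of 12 tested passed by edgeR, with 0 at an unadjusted p under 0.05 (median -0.60). Lrpprc, which stabilises mitochondrial messenger RNAs, had 3 and 39 reads with nicotine, against 88 and 48 reads with saline. Rexo2, an oligoribonuclease of mitochondria, had 6 and 30 reads with nicotine, against 34 and 31 reads with saline.

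As shares of reads outside the pair, sperm and connective tissue markers differed between the groups alongside the complex I genes. For leukocyte, epididymal epithelium and erythroid markers the groups overlapped. The sperm tail markers (12 of 15 in the tables) held 4.51% and 3.84% of reads outside the pair in nicotine replicates 1 and 2, against 1.31% and 1.22% in saline replicates 1 and 2, and 9 of 12 rose by edgeR with TMM, where 8.27% of all tested genes were called higher and 0.931% lower. With reads outside the pair, mitochondrial mRNA reads or total reads as the library size edgeR called 0 genes higher in all, these markers included. In these settings 2521, 2836 and 888 genes had an unadjusted p under 0.05. The sperm chromatin markers (7 of 7) held 0.763% and 1.13% with nicotine, against 0.551% and 0.378% with saline, and 3 of 7 rose (Prm3, Tnp2 and H1fnt). Connective tissue, smooth muscle and endothelial markers (19 of 21) held 0.238% and 0.766% with nicotine, against 3.18% and 1.54% with saline, and 3 of 17 tested fell (Col1a1, Col3a1 and Col5a2). Leukocyte markers (14 of 22) held 0.127% and 0.487% with nicotine, against 0.353% and 0.666% with saline, and 1 of 14 fell (Cd14). Epididymal epithelium markers (11 of 24) held 0.488% and 1.86% with nicotine, against 0.704% and 1.90% with saline, and 1 of 10 tested rose (Cftr). Erythroid markers (5 of 6) held 0.0332% and 0.199% with nicotine, against 0.192% and 0.112% with saline, and 0 of 5 passed by edgeR, with 0 at an unadjusted p under 0.05. The genes in brackets were named after their values were seen. Cd14 and Cd68 were at 0 reads in nicotine replicate 1, and Lum in nicotine replicate 1 and saline replicate 2. Sperm tail markers were higher and connective tissue markers lower in the same libraries in which the 7 genes were higher, and their part in that difference was not tested. Relative to the mean RPKM of the tail markers, the mean RPKM of the 7 genes stood at 2 and 2.44 with nicotine, against 4.51 and 4.71 with saline (exact permutation p = 0.333). On that scale the 7 genes were lower in both nicotine libraries. The tail marker mean rests mostly on Odf1 and Smcp, at 1190 and 1690 RPKM in nicotine replicate 1, where Pgk2 had 153. Their log2 fold changes with TMM, 2.75 and 2.77, were the highest of the 12 markers, which started at 1.22 (Tekt4) and had a median of 2.07. The ratio was not computed without Odf1 and Smcp.

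**Figure D5:**
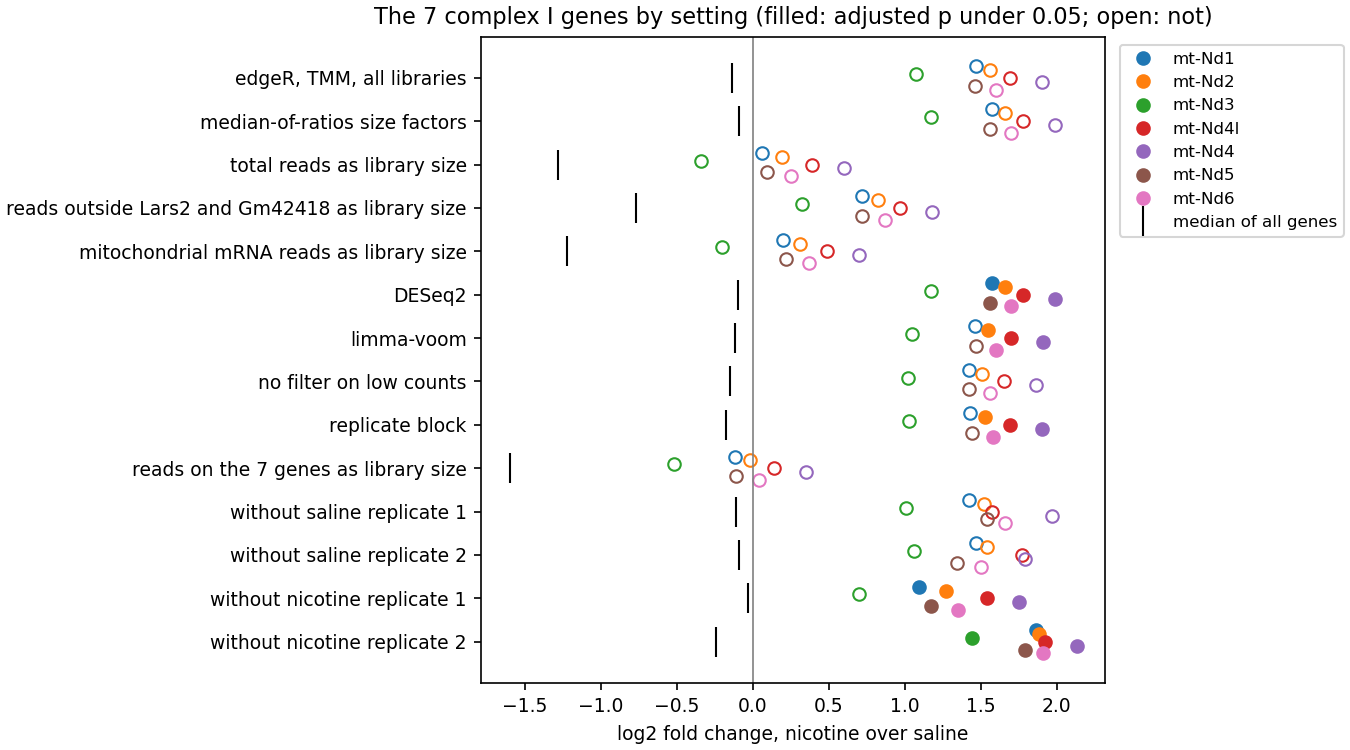
Log2 fold change (nicotine over saline) of the 7 genes under each test, scaling and left-out library, filled where the adjusted p was under 0.05, with a black tick for the median of all tested genes. The 7 genes lie to the right of that tick under every setting shown, while their distance from 0 moves with the scaling. Fits with a library left out hold a lone library in a group, so filled points there are not counted as calls.

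The profile of the 7 genes over the 4 libraries was set against their mean. Centred log2 CPM of the mean of the 7 was 1.02 and 0.49 in nicotine replicates 1 and 2, against -0.74 and -0.77 in saline replicates 1 and 2. The Euclidean distance to this mean profile was 0.0496 for mt-Nd2, 0.119 for mt-Nd6, 0.142 for mt-Nd5, 0.168 for mt-Nd1, 0.273 for mt-Nd4l, 0.421 for mt-Nd4 and 0.504 for mt-Nd3. Of 1347 genes outside the mitochondrial genome with a mean of 100 or more reads, those with the nearest profile were Rabgap1l, a Rab GTPase-activating protein (0.0887), Lrrc1 (0.182), Ubl3, a ubiquitin-like protein (0.187), Cdv3 (0.205) and Hbs1l, a ribosome rescue factor (0.206). Rabgap1l had 65 and 208 reads with nicotine, against 101 and 101 reads with saline. These distances rest on 4 libraries that share their scaling, and only describe them.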

How the data were processed

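Each library had a deposited table listing genes with their length, reads and RPKM. The read column, deposited by the authors, was handled as estimated counts, since a last line without a gene (1 per table) holds a fraction; all gene lines were whole numbers, so rounding changed nothing, and that line was left out. The RPKM values deposited by the authors equalled reads over length and table total. Per the labels' protocols RNA was extracted with Trizol and libraries were made with a kit named for DNA samples. The names CASAVA, TopHat and mm8 come from the labels' list of tools and builds, per the submitters' processing notes, with no role or version. The sources used here do not give the counter, annotation or gene filter. Symbols matched 8688 of 8699 identifiers. GENCODE M21 is of GRCm38, later than mm8, so no coordinates are given; the tables listed 13 of its 37 mitochondrial genes, with 0 tRNA and 0 rRNA genes.

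The main test was edgeR 4.0.16 (R 4.3.3), quasi-likelihood, TMM, group as the term, filterByExpr with a minimum count of 10 (8375 genes tested, 324 not), Benjamini-Hochberg adjusted p under 0.05 over all tested genes. TMM factors were 0.3245 and 1.113 in nicotine replicates 1 and 2, and 1.681 and 1.647 in saline replicates 1 and 2. Standard errors are the size of the log2 fold change over the square root of F. Single values were compared by two-sided exact permutation over libraries. Shares and ratios have exact Clopper-Pearson 95% intervals. The test was checked on simulated data, which does not measure its power or error rate for these libraries. Alternatives were other scalings, DESeq2 1.42.0, limma-voom (limma 3.58.1), no filter, a replicate block and leaving out each library. Members and gene lists were chosen with earlier results of these data known. Named nuclear genes are the called genes of each list, at most 4, and the 2 with the highest mean CPM; like genes are the 5 nearest by distance. One gene that this rule names is not reported here.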

Additional observations from a re-analysis of the deposited data

How the results depend on the processing

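Relative to the median of all tested genes the 7 genes lay 0.72 to 2.37 higher on the log2 scale over the 14 settings, a measure that scalings can hardly move and that shows no stability under them. Scalings moved that median from -0.14 (TMM) to -1.28 (total reads), -0.77 (reads outside Lars2 and Gm42418), -1.22 (mitochondrial mRNA reads) and -1.60 (reads on the 7 genes, chosen after seeing the data). Without that centring mt-Nd3 had -0.34, -0.20 and -0.52 with total reads, mitochondrial mRNA reads and reads on the 7 genes, and mt-Nd1, mt-Nd2 and mt-Nd5 had -0.12, -0.02 and -0.11 with reads on the 7 genes, which holds the 7 constant as a sum by construction.

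Members called higher with all libraries numbered 0 by edgeR (6 with an unadjusted p under 0.05), 6 by DESeq2 and 4 by limma-voom. With all libraries 0 were called lower under any setting. Of all genes 693 were higher and 78 lower. These counts were 0 and 9 with total reads (888 with an unadjusted p under 0.05), 0 and 0 with reads outside the pair (2521) and 0 and 0 with mitochondrial mRNA reads (2836). They were 42 and 3579 with reads on the 7 genes, while limma-voom called 46 lower. With 1 library left out, where a lone library is assumed to vary like the others, they spanned 0 to 1515 higher and 9 to 824 lower. The causes were not tested.

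With the replicate number as a block 4 of the 7 were called higher, and 1078 genes higher and 279 lower. The labels do not say that the numbers mark a shared animal or day, and same-numbered libraries deviated together with r = 0.173 across genes. With 2 pairs this leaves unsettled whether the numbers pair the samples, and they are not treated as pairs.

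The difference in the share of all reads spanned -0.174 to 0.346 percentage points with 1 library left out and was reversed, at -0.174, without nicotine replicate 2. The share outside the pair differed by 1.72 to 1.80 points in the same settings. The difference in the mt-Nd6 share of the summed RPKM, 0.508 points, was 0.0435 when saline replicate 2 was left out, 0.972 when saline replicate 1 was, and 0.135 on reads, and the groups overlapped. Depth limits the nuclear genes most, with a median of 8 reads per gene in nicotine replicate 1.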
